A study of Saccharomyces cerevisiae with 7 samples.

Results

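The core histone genes of Saccharomyces cerevisiae lie in 4 divergent pairs, HTA1-HTB1, HTA2-HTB2, HHT1-HHF1 and HHT2-HHF2, and the genes of each pair share the stretch of DNA between their start codons as their promoter region. Spo11-linked DNA breaks were described in these 4 gaps and in the 8 ORFs beside them. The gaps were taken by gene name from the R64 annotation, but with earlier results of these data known. They were 4 of the 1479 divergent gaps, and the ORFs 8 of the 5691 ORFs, that were analysed on 15 chromosomes. The HTA1-HTB1 gap (817 bp) lies on chromosome IV, the HTA2-HTB2 gap (699 bp) and the HHT1-HHF1 gap (646 bp) on chromosome II, and the HHT2-HHF2 gap (676 bp) on chromosome XIV.

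HTA genes encode histone H2A and HTB genes histone H2B, HHT genes encode histone H3 and HHF genes histone H4, the proteins on which DNA is wound in the nucleosome. Their divergent promoters fire as cells enter S phase, when newly made DNA has to be packaged, and are activated through Spt10 and the SBF factor. Outside S phase the HIR complex represses every pair except HTA2-HTB2. Spo11, a relative of topoisomerase VI, cuts DNA in meiosis to start recombination, mostly in nucleosome-free promoter regions, and stays covalently bound to the 5′ ends that it makes.

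CC-seq captures such protein-linked ends and gives their position to the nucleotide on each strand. All cells were meiotic yeast of the SK1 strain, described in the labels and methods as carrying a sae2Δ disruption, which keeps Spo11 on the ends, and were harvested after 6 h in sporulation medium. The SPO11+ group had 5 biological replicates, the fifth as the sum of 2 technical replicates, and the spo11-Y135F group, whose Spo11 lacks the catalytic tyrosine, had 1 library. Each value is in HpM, hits scaled to 1000000 hits of the library, per bp of the region. SPO11+ replicates held 3177210 to 8564017 hits, and spo11-Y135F held 2326054.

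Replicate 5 and spo11-Y135F carry a doubt as to this genotype. The labels of replicate 5 give the sae2 genotype, but its maps were deposited under names that say WT. In a 554 bp stretch of the SAE2 ORF, chosen after its values were seen because the deepest replicate had no hits there, replicates 1 to 4 held 0, 0, 1 and 0 hits. The technical replicates of replicate 5 held 1 and 13. The library labelled spo11-Y135F held 20, against 108 and 97 in the stretches of equal length on either side, which per bp is 19.5% of the level there, and 5.098% in technical replicate 2 of replicate 5. The source of these hits was not tested, and spo11-Y135F has no replicate to set beside it. The technical replicates differed from each other with a chi-square of 1.37 per degree of freedom over all regions, against 4.54 to 25.1 between biological replicates. This measure grows with depth for the same relative difference. The technical replicates held 1509630 and 2059660 hits, fewer than any biological replicate, so the values are not on equal terms. Means without replicate 5 are given beside the densities of the gaps.

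In SPO11+ cells all 4 gaps held more hits per bp than the ORFs beside them, and they fell in a fixed order, with HHT2-HHF2 highest and HTA1-HTB1 lowest. In HHT2-HHF2 the 5 SPO11+ replicates had 0.408, 0.483, 0.363, 0.597 and 0.431 HpM per bp, a mean of 0.457 ± 0.090 (SD, n = 5; 0.463 without replicate 5), against 0.0808 in spo11-Y135F (95% Wilson interval 0.0679 to 0.0961). In HHT1-HHF1, the other pair for H3 and H4, they had 0.268, 0.331, 0.241, 0.385 and 0.229, a mean of 0.291 ± 0.066 (0.306 without replicate 5), against 0.0839 in spo11-Y135F (0.0704 to 0.0998). In both gaps every SPO11+ replicate lay above the spo11-Y135F interval.

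The gaps of the H2A and H2B pairs were lower. In HTA2-HTB2 the SPO11+ replicates had 0.166, 0.199, 0.144, 0.220 and 0.162 HpM per bp, a mean of 0.178 ± 0.031 (SD, n = 5; 0.182 without replicate 5), against 0.121 in spo11-Y135F (0.105 to 0.139). In HTA1-HTB1 they had 0.0932, 0.0859, 0.0845, 0.0970 and 0.0933, a mean of 0.0908 ± 0.0053 (0.0902 without replicate 5), against 0.0874 in spo11-Y135F (0.0750 to 0.102). All 5 SPO11+ replicates of HTA2-HTB2 lay above the spo11-Y135F interval, and all 5 of HTA1-HTB1 lay within it. The intervals cover counting error only, since the hits carry no molecular identifiers. In these bulk samples, breaks in more cells and more breaks per cell cannot be told apart.

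**Figure D1:**
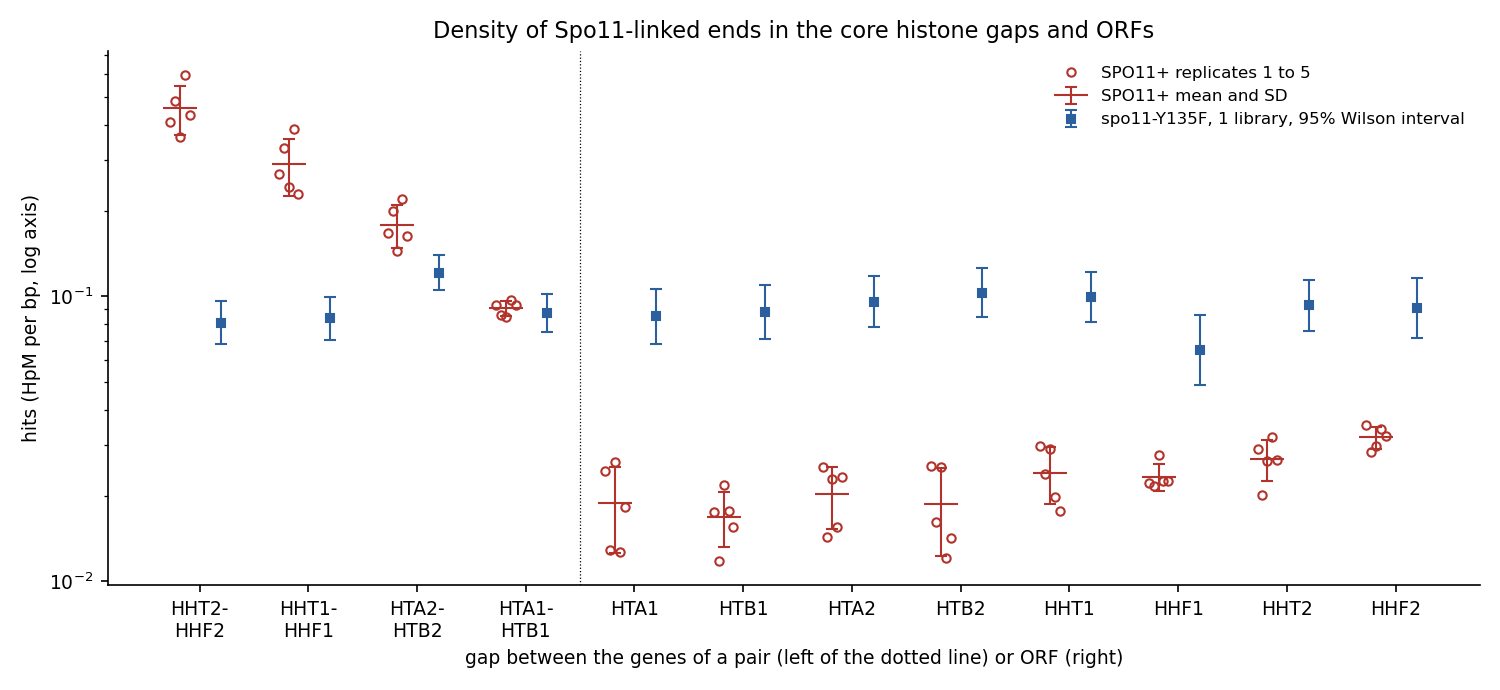
Hits in HpM per bp (log axis) in the 4 core histone gaps and the 8 ORFs: open circles are SPO11+ replicates, horizontal lines their mean with SD, and squares the spo11-Y135F library with its 95% Wilson interval. SPO11+ gap means run between 0.0908 and 0.457 HpM per bp, all above the ORF means of 0.0169 to 0.0320.

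The order HHT2-HHF2, HHT1-HHF1, HTA2-HTB2, HTA1-HTB1 held in 5 of 5 SPO11+ replicates for each of the 6 pairs of gaps. HHT2-HHF2 was 1.58-fold ± 0.17 above HHT1-HHF1, 2.55-fold ± 0.12 above HTA2-HTB2 and 5.02-fold ± 0.83 above HTA1-HTB1 (SD, n = 5). HHT1-HHF1 was 1.62-fold ± 0.13 above HTA2-HTB2 and 3.20-fold ± 0.67 above HTA1-HTB1, and HTA2-HTB2 was 1.96-fold ± 0.30 above HTA1-HTB1. Each pair gave p = 0.0625 in a two-sided exact sign-flip permutation test, also after Benjamini-Hochberg adjustment over the 6 pairs, and 0.0625 is the smallest p that 5 replicates can give, so no pair could pass 0.05. These p-values measure the spread between the samples of this series. In spo11-Y135F the order was another, with HTA2-HTB2 highest and the 4 densities within 1.50-fold of each other, against 5.03-fold for the SPO11+ means.

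Replicate 4 was the highest of the 5 in 4 of 4 gaps and replicate 3 the lowest in 3 of 4. Replicate 2 was next to the highest in HHT2-HHF2, HHT1-HHF1 and HTA2-HTB2 and next to the lowest in HTA1-HTB1. The relative spread between replicates (SD over mean) was 5.86% in HTA1-HTB1, 17.1% in HTA2-HTB2, 22.6% in HHT1-HHF1 and 19.7% in HHT2-HHF2. Hits were close to evenly split between the strands, with a Watson share of 49.4% ± 6.0, 49.5% ± 4.5, 48.2% ± 0.96 and 54.1% ± 2.2 in the same order (SD, n = 5).

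Set against other divergent gaps of about the same width, the histone gaps were not alike. Each gap was divided, within each replicate, by the median density of the divergent gaps whose width lay within 25% of its own, and the log2 ratio was tested against 0 with limma across all divergent gaps with enough hits, with Benjamini-Hochberg adjustment over them. By this test 1 of 4 histone gaps lay above its similar gaps, where 45.7% of all divergent gaps tested did so, and 2 of 4 lay below, where 45.5% of all did so. Most divergent gaps were thus called in either direction. The middle of the class was wide, with quartiles of 0.122 and 0.597 HpM per bp for the similar gaps of HTA1-HTB1.

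HHT2-HHF2 had 1.58, 1.72, 1.51, 2.31 and 1.74 times the median of its 421 similar gaps in the 5 SPO11+ replicates, 1.75-fold in the fit (log2 0.81, SE 0.091, adjusted p = 1.45e-05 by limma, above in 5 of 5). It ranked 139 of 422, so that it was well inside the range of its class. HHT1-HHF1 had 1.05, 1.19, 1.00, 1.49 and 0.929 times the median of its 438 similar gaps, 1.12-fold in the fit, with a 95% interval of 0.957 to 1.30 (adjusted p = 0.148 by limma, above in 4 of 5), and ranked 199 of 439. No difference of HHT1-HHF1 from its similar gaps was detected, within that interval.

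HTA2-HTB2 had 0.646, 0.712, 0.605, 0.852 and 0.657 times the median of its 426 similar gaps, 0.689-fold in the fit (log2 -0.54, SE 0.081, adjusted p = 1.25e-04 by limma, below in 5 of 5), and ranked 267 of 427. HTA1-HTB1 had 0.382, 0.314, 0.368, 0.400 and 0.382 times the median of its 382 similar gaps, 0.368-fold in the fit (log2 -1.44, SE 0.070, adjusted p = 2.31e-08 by limma, below in 5 of 5), and ranked 311 of 383. In both gaps all 5 replicates lay below 1. Leaving out replicate 5 changed none of these 4 calls. The mean of the similar gaps, unlike their median, is raised by a few strong gaps (0.506 against 0.249 HpM per bp for those of HTA1-HTB1), and against it none of the 4 histone gaps lay above 1 (HHT2-HHF2 at 0.909-fold, adjusted p = 0.178 by limma).

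**Figure D2:**
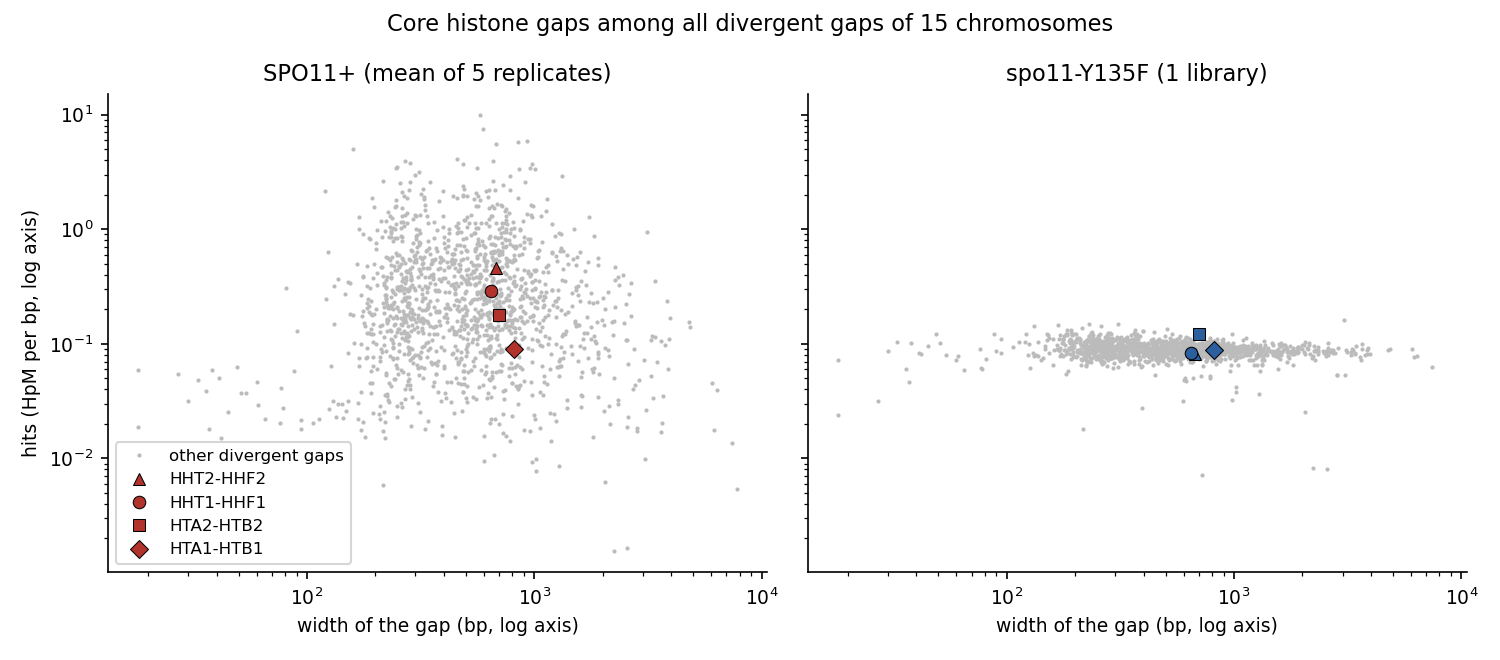
Width of every divergent gap (bp, log axis) against its hits in HpM per bp (log axis), in SPO11+ (left, mean of 5 replicates) and in spo11-Y135F (right, 1 library), with the 4 core histone gaps as large symbols. In SPO11+ the histone gaps are spread through the cloud, at ranks 139 of 422 for HHT2-HHF2 and 311 of 383 for HTA1-HTB1 among gaps of similar width, while in spo11-Y135F the cloud is narrow and HTA2-HTB2 stands near its upper edge.

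Among the gaps of similar width, that between AAC1, a mitochondrial ADP/ATP carrier, and FET3, a multicopper oxidase of iron uptake, had the highest density around HTA2-HTB2, HHT1-HHF1 and HHT2-HHF2, with 9.87 ± 1.92 HpM per bp in SPO11+ (SD, n = 5) against 0.0700 in spo11-Y135F. Around HTA1-HTB1 the highest was SND1-CCT6, with 5.91 ± 0.46 against 0.0950. The lowest were YHR214C-E-PHO12, with 0.00946 ± 0.0026 in SPO11+ against 0.0314 in spo11-Y135F, and HSP33-ERR1, with 0.00781 ± 0.0015 against 0.0376. The histone gaps therefore lay far from both ends of the class.

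The similar gaps nearest to each histone gap over the 5 replicates, by Euclidean distance of log2 density, were named as well. POR1-YNL054W-A, beside the gene of the outer mitochondrial membrane porin, averaged 0.440 HpM per bp in SPO11+ and was nearest to HHT2-HHF2, followed by SDH6-ARO10 with 0.447. YBR182C-A-YPC1 (0.285) and SKG6-PEX28 (0.294) were nearest to HHT1-HHF1, and YET3-BDF2 (0.178) and CDC21-UFE1 (0.179), which holds the promoter of thymidylate synthase, to HTA2-HTB2. IES1-YFL012W (0.0908) and RPS22A-RPL39 (0.0858), the promoter region of ribosomal protein genes, were nearest to HTA1-HTB1. In spo11-Y135F these 8 neighbours had 0.0502 to 0.0977 HpM per bp.

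The ORFs held few hits in SPO11+ cells. Their means lay between 0.0169 HpM per bp in HTB1 and 0.0320 in HHF2 (0.0172 and 0.0320 without replicate 5), with 17 to 84 hits per ORF and replicate, against 0.0648 in HHF1 and 0.103 in HTB2 as the lowest and the highest of the 8 in spo11-Y135F. In 8 of 8 ORFs every SPO11+ replicate lay below the spo11-Y135F interval. The share of all ORFs for which this holds was not computed. On the same scale 90.8% of all ORFs tested were lower in SPO11+ in the edgeR comparison given below, so this is not particular to histone ORFs. The H2A pair HTA1 and HTA2 averaged 0.0189 ± 0.0063 and 0.0202 ± 0.0049, and the H2B pair HTB1 and HTB2 0.0169 ± 0.0037 and 0.0186 ± 0.0063. The H3 pair HHT1 and HHT2 averaged 0.0241 ± 0.0054 and 0.0269 ± 0.0044, and the H4 pair HHF1 and HHF2 0.0233 ± 0.0025 and 0.0320 ± 0.0029 (SD, n = 5 each).

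Genes of a pair of copies encode near-identical proteins, and reads were aligned without a cut on mapping quality, so hits of one copy can have been placed on the other. Values of the copies are uncertain in that respect, and in spo11-Y135F the 8 ORFs had 0.0648 to 0.103 HpM per bp beside a median of 0.0869 to 0.0879 in ORFs of similar length. Those ORFs had a median of 0.0275 to 0.0285 HpM per bp in SPO11+. HTB1 was higher than 7.66% of ORFs of similar length in SPO11+ and HHF2 higher than 56.9%, the lowest and the highest share among the 8.

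Gap and ORFs of a pair can be compared within a library, without regard to how its hits were scaled. The HHT2-HHF2 gap had 12.7, 19.9, 12.9, 18.003 and 14.6 times the mean density of its ORFs in the SPO11+ replicates, a mean of 15.6 ± 3.2 (SD, n = 5), against 0.878 in spo11-Y135F. HHT1-HHF1 had 10.3, 14.5, 8.48, 18.2 and 11.4, a mean of 12.6 ± 3.8, against 1.02. The ratio was above that of spo11-Y135F in 5 of 5 replicates in both.

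HTA2-HTB2 had 6.56, 13.0, 6.00, 15.99 and 8.70 times the density of its ORFs, a mean of 10.0 ± 4.3 in SPO11+ (SD, n = 5), against 1.22 in spo11-Y135F. HTA1-HTB1 had 4.45, 6.96, 3.52, 6.38 and 5.52, a mean of 5.36 ± 1.40, against 1.01. All 5 replicates again lay above spo11-Y135F in both. Each of the 4 ratios was above 1 in 5 of 5 replicates (two-sided exact sign-flip permutation p = 0.0625, the smallest possible, also after adjustment over 4). Such ratios were not computed for the other divergent gaps. These counts, and those against spo11-Y135F, therefore do not show a trait particular to the histone pairs. Over the 4 pairs the gaps held 90.8% ± 2.5 of the hits of gaps and ORFs together in SPO11+, against 49.0% in spo11-Y135F, on 48.3% of the length.

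**Figure D3:**
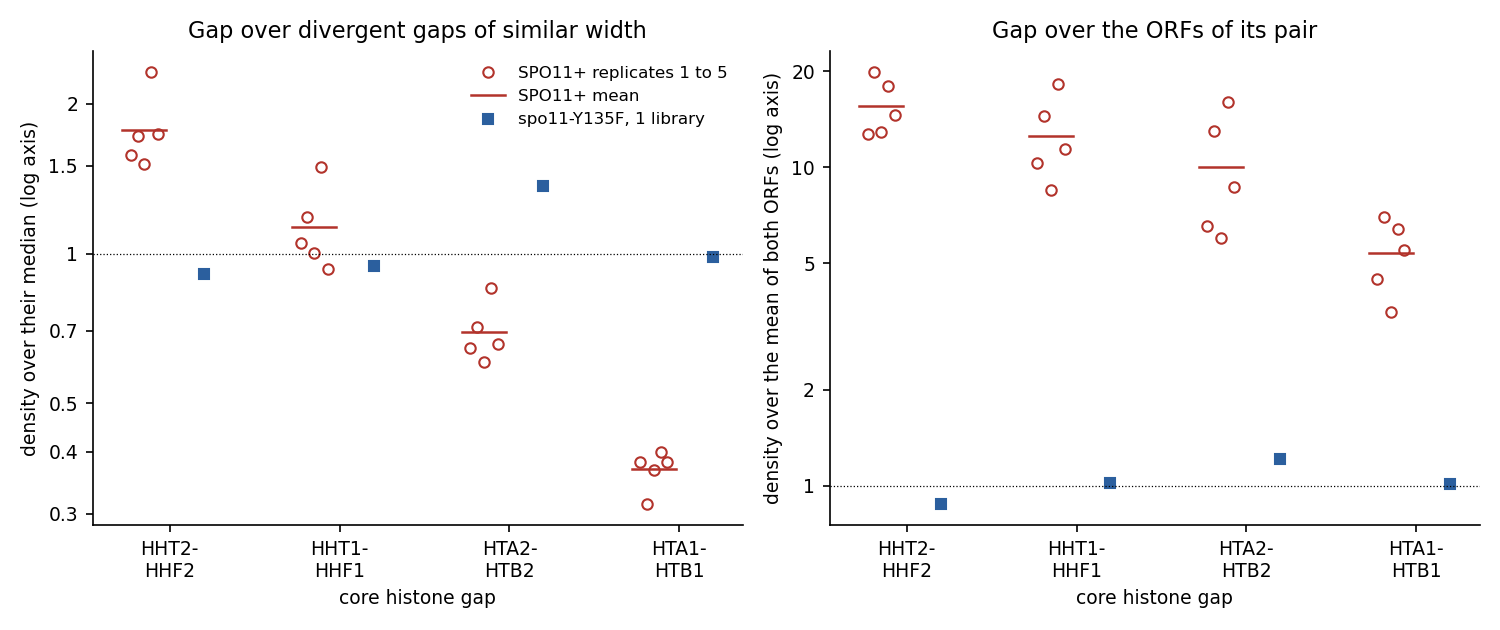
Left, density of each core histone gap over the median of divergent gaps of similar width. Right, density of each gap over the mean of its ORFs (both log axes). Circles are SPO11+ replicates with their mean as a line, squares spo11-Y135F, and the dotted line marks 1. On the left the SPO11+ values step down between 1.75-fold for HHT2-HHF2 and 0.368-fold for HTA1-HTB1, and on the right all SPO11+ values lie above spo11-Y135F.

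SPO11+ and spo11-Y135F were then compared on the hits of all ORFs and intergenic regions with edgeR's quasi-likelihood test, with all hits as library size, Benjamini-Hochberg adjustment over all regions and a level of 0.05. HHT2-HHF2 was higher in SPO11+ by log2 2.50 (SE 0.31, adjusted p = 2.69e-05) and HHT1-HHF1 by log2 1.80 (SE 0.33, adjusted p = 2.79e-04), in 5 of 5 replicates each. HTA2-HTB2 differed by log2 0.56 (SE 0.28, adjusted p = 0.0795) and HTA1-HTB1 by log2 0.05 (SE 0.25, adjusted p = 0.840), and neither passed. Without replicate 2 HTA2-HTB2 passed (log2 0.51, adjusted p = 0.0359), and it did not in the full set or without any other replicate. Thus 2 of 4 histone gaps rose, where 65.2% of all divergent gaps did, and 0 of 4 fell by edgeR at the adjusted level, by edgeR at an unadjusted p under 0.05 or by DESeq2, where 13.8% of all divergent gaps fell.

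All 8 histone ORFs fell, with log2 -1.47 in HHF1 to log2 -2.47 in HTB2, as did 90.8% of all ORFs tested. The comparison rests on 1 spo11-Y135F library, assumed to vary like the SPO11+ replicates. In a simulation with 200 of 11312 regions changed 2-fold it found 24.5% of them. Far more regions were called in the data, so that share does not measure how many changes the fit can find here. Hits are shares of a library, and the median over all regions was log2 -1.77. With TMM factors, which bring that median to -0.20, 4 of 4 gaps were higher, where 87.9% of all divergent gaps were, HTA1-HTB1 by log2 1.64 (adjusted p = 5.02e-06) and HTA2-HTB2 by log2 2.16 (adjusted p = 5.54e-08), while the ORFs HHF1 and HHF2 turned to log2 0.12 and 0.07 without a call (adjusted p = 0.768 and 0.847). With TMM factors 3 of 8 ORFs kept their call (HTB1, HTA2 and HTB2), where 44.4% of all ORFs were lower, and HTA1, HHT1 and HHT2 lost it (adjusted p = 0.0705, 0.169 and 0.489). With DESeq2 the call was lost in 8 of 8 ORFs, where 1363 of all 5671 ORFs tested were lower. The fall of the histone ORFs, and the calls of the HTA1-HTB1 and HTA2-HTB2 gaps, thus depended on the scaling.

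Within the gaps the hits were not spread evenly. In HTA1-HTB1, where the density of SPO11+ matched that of spo11-Y135F, 7.71% ± 1.54 of the SPO11+ hits lay within 150 bp of a start codon (SD, n = 5), against 36.1% in spo11-Y135F and 36.7% for an even spread. In HTA2-HTB2 the share was 7.17% ± 2.19 against 51.3%, in HHT1-HHF1 13.3% ± 2.4 against 45.2%, and in HHT2-HHF2 9.39% ± 0.75 against 45.7%. The highest SPO11+ replicate in any gap, 17.2% in HHT1-HHF1, was below the lowest share of spo11-Y135F.

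The central 90% of the hits accordingly spanned less of the gap in SPO11+. This span was 478 bp ± 32 in HTA1-HTB1 against 725 bp in spo11-Y135F, and 327 bp ± 54 in HTA2-HTB2 against 623 bp. It was 395 bp ± 23 in HHT1-HHF1 against 601 bp, and 379 bp ± 10 in HHT2-HHF2 against 606 bp (SD, n = 5). Distances were measured with R64 gene borders on maps in another build, and no other placing of the borders was tried for these shares, spans and distances.

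Smoothed with a Hann window of 25 bp to each side, the SPO11+ hits formed peaks with low stretches between them. HHT2-HHF2 had its highest peak 234 bp before the HHT2 start codon, with 1.83 ± 0.29 HpM per bp in SPO11+ (SD, n = 5) against 0.0980 in spo11-Y135F, and another 208 bp before HHF2 with 1.25 ± 0.26 against 0.0778. Between them, 299 bp before HHF2, the signal was 0.128 ± 0.046 against 0.0964. HHT1-HHF1 had the same layout, with peaks 200 bp before HHT1 (1.42 ± 0.34 against 0.0671) and 225 bp before HHF1 (0.594 ± 0.102 against 0.116). Its low point lay 301 bp before HHF1 (0.181 ± 0.090 against 0.0656). The place of these 4 peaks varied by at most 4 bp between replicates, except before HHF1, where it varied by 14 bp.

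HTA2-HTB2 had peaks 286 bp before HTA2 and 274 bp before HTB2, of about equal height, with 0.747 ± 0.196 and 0.799 ± 0.245 HpM per bp in SPO11+ against 0.0977 and 0.0894 in spo11-Y135F. HTA1-HTB1 had 4 peaks, whose places varied by 2, 3 and 9 bp between replicates for all but the peak 437 bp before HTA1. For that peak the search gave places up to 477 bp before HTA1. There it met the edge of its window, towards the higher peak 333 bp before HTB1, so its range of 41 bp does not measure movement of the peak. The highest, 333 bp before HTB1, had 0.557 ± 0.048 in SPO11+ against 0.114 in spo11-Y135F, and the others 0.449 ± 0.037, 0.253 ± 0.053 and 0.171 ± 0.025. Of the 3 low points between its peaks, those 401 and 568 bp before HTA1 had 0.0293 ± 0.0082 and 0.0301 ± 0.0172, near the ORF level of SPO11+, against 0.120 and 0.0834 at the same places in spo11-Y135F. The low point 461 bp before HTA1, between its highest peaks, stayed at 0.297 ± 0.071 against 0.104. At these places the HTA1-HTB1 gap had peaks above the spo11-Y135F level, and 2 low points below it, at nearly the same mean density. Peaks and low points were placed on the SPO11+ mean profile. That choice alone favours SPO11+ values above spo11-Y135F at peaks and below it at low points.

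**Figure D4:**
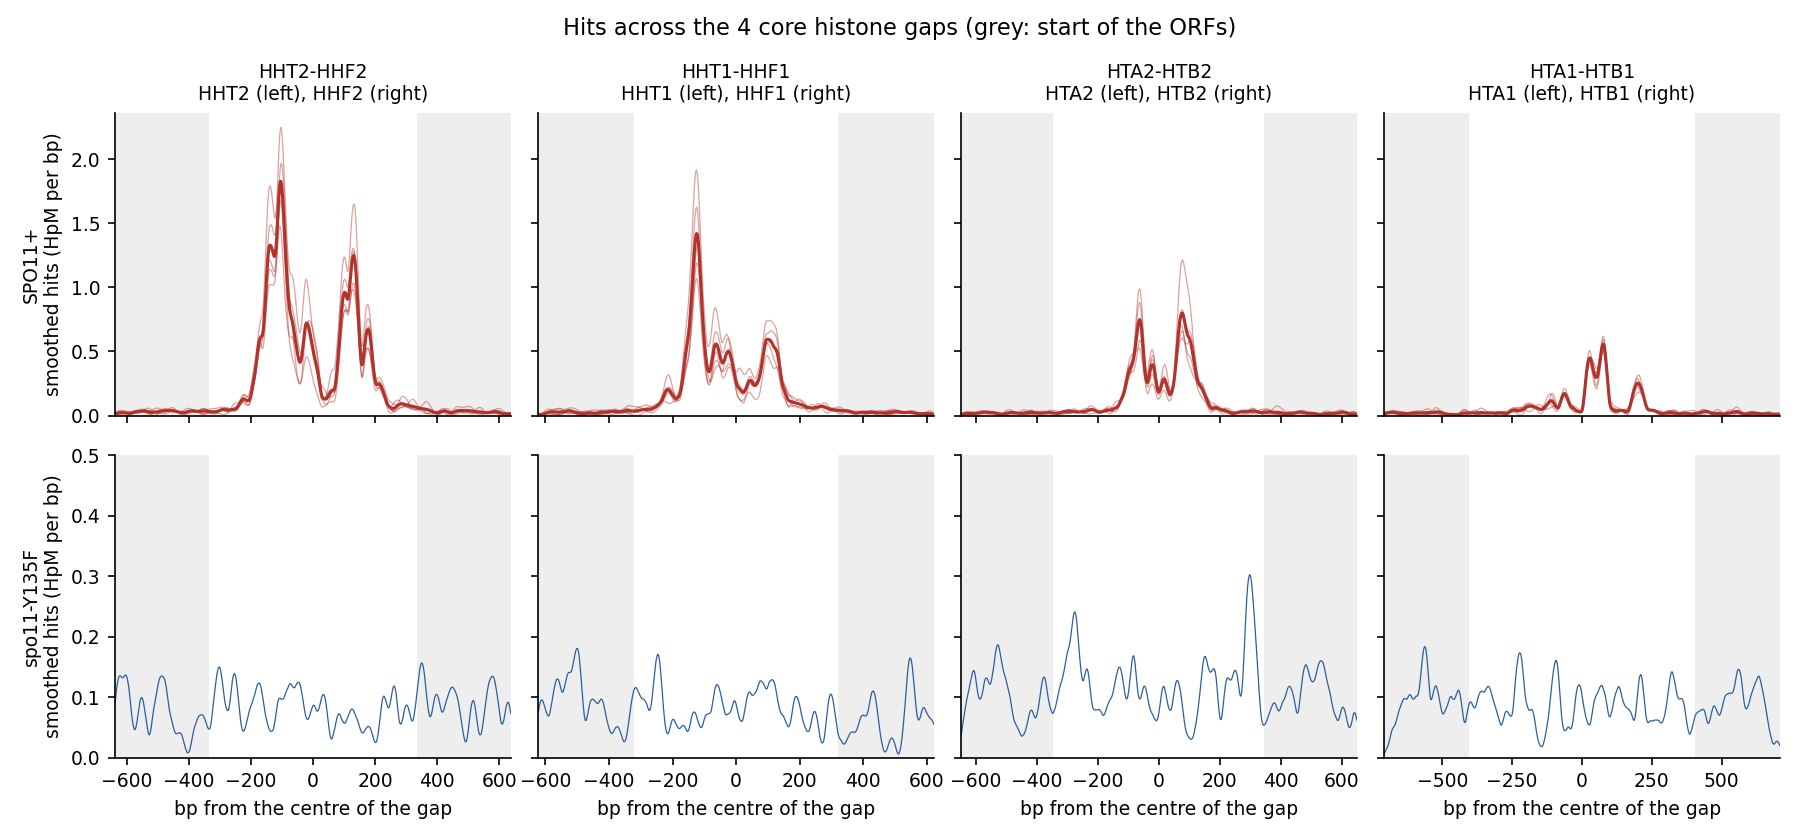
Smoothed hits (HpM per bp) against the distance from the centre of each core histone gap in bp, with the SPO11+ replicates above (thin lines, their mean thick) and spo11-Y135F below on an axis of its own that ends at a lower value. Grey marks the ORFs. SPO11+ hits gather in 2 main peaks in HHT2-HHF2, HHT1-HHF1 and HTA2-HTB2 and in 4 in HTA1-HTB1. At the places of these peaks, set on the SPO11+ mean, spo11-Y135F stays between 0.0451 and 0.116 HpM per bp.

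The hits also lay unevenly about the midpoint of the gap. In HTA1-HTB1 28.8% ± 2.1 of the SPO11+ hits were on the HTA1 side (SD, n = 5; lowest 25.4%, highest 31.2%), against 50.6% in spo11-Y135F, so that most lay on the HTB1 side. In HTA2-HTB2 45.6% ± 3.2 were on the HTA2 side (39.96% to 47.4%), against 49.5%. In HHT1-HHF1 64.7% ± 2.3 were on the HHT1 side (61.9% to 67.7%), against 50.8%, and in HHT2-HHF2 58.7% ± 1.3 on the HHT2 side (56.7% to 59.9%), against 58.3%. Each share was on the same side of 50% in 5 of 5 replicates (two-sided exact sign-flip permutation p = 0.0625, the smallest possible, also after adjustment over 4). With Crick hits alone, the HTA2 side of HTA2-HTB2 held 48.3%, below 50% in 3 of 5 replicates (exact p = 0.6875). In HHT2-HHF2 the spo11-Y135F share fell inside the SPO11+ range, and in the other gaps it lay outside. The spo11-Y135F shares rest on 126 to 197 hits per gap, and no interval was computed for them. In HTA2-HTB2 the share of 49.5% lay close to the SPO11+ range, so no difference can be read there.

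Hotspots were called on the mean SPO11+ map, smoothed over 100 bp in each direction, where the signal exceeded 3 times the genome mean for 25 bp or more. Each of the 4 histone gaps held 1 hotspot, among 2682 in all, where 73.6% of all divergent gaps held or touched at least 1. At 5 times the mean HTA1-HTB1 held none and 3 of 4 held 1, where 59.6% of all did. That of HHT2-HHF2 (chrXIV:576177-576608 in Cer3H4L2, the build of the maps) had 291.3 ± 59.2 HpM in SPO11+ (SD, n = 5) against 32.7 in spo11-Y135F, and ranked 585. That of HHT1-HHF1 (chrII:255852-256206) had 164.5 ± 39.6 against 30.1 and ranked 1019. That of HTA2-HTB2 (chrII:236030-236285) had 104.8 ± 20.6 against 23.2 and ranked 1413, and that of HTA1-HTB1 (chrIV:915036-915098) had 32.7 ± 2.6 against 6.45 and ranked 2361.

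The hotspots lay wholly inside the gaps. They held 94.4% of the hits of the gap in HHT2-HHF2, 87.5% in HHT1-HHF1 and 84.0% in HTA2-HTB2, but 44.1% in HTA1-HTB1, where the hotspot was 63 bp wide. In spo11-Y135F the same stretches held 59.8%, 55.6%, 27.4% and 9.04% of the hits of the gap, and they made up 63.9%, 55.0%, 36.6% and 7.71% of its length. Hotspots were placed where the mean SPO11+ signal was high. That choice alone favours SPO11+ shares above the share of length and above spo11-Y135F.

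At single nucleotides, Spo11 cuts both strands with a 2 nt overhang, so that a Watson end is followed by a Crick end 1 bp further along. Over the positions with hits on both strands at this offset (22 to 158 per gap and replicate), the hits on the strands correlated across positions with Pearson's r of 0.835 ± 0.061 in HHT2-HHF2, 0.601 ± 0.182 in HHT1-HHF1, 0.674 ± 0.096 in HTA2-HTB2 and 0.820 ± 0.057 in HTA1-HTB1 (SD, n = 5 SPO11+ replicates). Positions of 1 library share its depth and are not independent. Averaged over the other offsets up to 100 bp in either direction, r was at most 0.030 in any gap, but at an offset of 0 it was 0.517 in HTA1-HTB1. The offset of 1 bp gave the highest r of all offsets in 5 of 5 replicates in HHT2-HHF2, but in 2, 1 and 0 of 5 in HHT1-HHF1, HTA2-HTB2 and HTA1-HTB1, where other offsets rest on as few as 10 positions.

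Of the SPO11+ hits, 82.6% ± 4.9 in HHT2-HHF2, 73.7% ± 8.3 in HHT1-HHF1, 69.5% ± 8.7 in HTA2-HTB2 and 55.1% ± 7.2 in HTA1-HTB1 had a partner end on the other strand at this offset (SD, n = 5). In spo11-Y135F, whose library holds fewer hits, the shares were 10.2%, 9.52%, 15.2% and 13.3%, at 6 to 13 positions per gap. A share of this kind grows with the number of hits, so the shares of gaps and groups that differ in hits are given side by side only.

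Few sites carried much of the signal. The sites named here were picked by their mean SPO11+ HpM, and that choice alone favours higher values in SPO11+ than in spo11-Y135F. In HHT2-HHF2 the strongest site, with ends at chromosome XIV 576249 (Watson) and 576250 (Crick), 199 bp before HHT2, had 22.9 ± 5.8 HpM in SPO11+ (SD, n = 5) and 1 hit in spo11-Y135F, and held 7.41% of the hits of the gap. The next, at 576275 and 576276, had 21.6 ± 3.2 HpM and 0 hits in spo11-Y135F, and the one at 576522 and 576523, on the HHF2 side, 10.1 ± 3.2 and 0. The first and the second were among the 3 strongest sites of the gap in 5 of 5 replicates.

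In HHT1-HHF1 the strongest site, at chromosome II 255885 and 255886, lay 201 bp before HHF1 with 7.89 ± 2.82 HpM in SPO11+ and 0 hits in spo11-Y135F. It was followed by sites at 256133 and 256134 (6.93 ± 1.71, 1 hit in spo11-Y135F) and at 256136 and 256137 (6.03 ± 2.32, 0 hits), both before HHT1. In HTA2-HTB2 the strongest was at 236212 and 236213, 280 bp before HTB2, with 8.17 ± 2.11 HpM and 0 hits. Its next sites, at 236247 and 236248 (5.18 ± 2.67) and at 236073 and 236074 (5.13 ± 1.95), both without hits in spo11-Y135F, were among the 3 strongest in 3 and 1 of 5 replicates, so their rank was not stable.

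In HTA1-HTB1 the strongest site, at chromosome IV 915097 and 915098, 385 bp before HTB1, had 7.07 ± 0.61 HpM in SPO11+ and 0 hits in spo11-Y135F. It alone held 9.53% of the hits of the gap, the highest share of any of the 12 sites named. The next, at 915043 and 915044 and at 915044 and 915045, had 5.67 ± 1.12 and 3.76 ± 0.76 HpM against 2 and 0 hits in spo11-Y135F. HTA1-HTB1, the gap with the lowest density, thus had a strongest site close in HpM to those of HTA2-HTB2 and HHT1-HHF1. The 10 strongest sites held 36.1% of the hits in HTA1-HTB1, 36.2% in HTA2-HTB2, 27.5% in HHT1-HHF1 and 32.8% in HHT2-HHF2.

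On the far side of the histone genes the level was mostly low. The 6 convergent regions, between the ends of a histone gene and its neighbour (CRF1, UTP20, ECM15, IPP1, SIW14 and KTR5), had 0.0153 to 0.0493 HpM per bp in SPO11+, against 0.0746 to 0.117 in spo11-Y135F. The region between HHF1 and FLR1, a drug transporter gene, had 0.0445 ± 0.0067 against 0.0987. The region between HTA1 and ADK1, which encodes adenylate kinase, had 0.370 ± 0.016 in SPO11+ against 0.0849 in spo11-Y135F (SD, n = 5), above the gap on the other side of HTA1 in 5 of 5 replicates.

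Other histone genes and histone regulators were described by the intergenic region upstream of each, in the same edgeR fit. Of 3 genes for variant and linker histones 2 rose in SPO11+, where 48.5% of all promoter-containing regions rose, and 0 fell, where 25.1% of all fell. HHO1, the linker histone H1, had 0.705 ± 0.076 HpM per bp in SPO11+ against 0.0867 in spo11-Y135F (log2 3.02, adjusted p = 1.58e-06), more than any core histone gap. HTZ1, the H2A variant H2A.Z, had 0.121 ± 0.012 against 0.0809 (log2 0.58, adjusted p = 0.0337). The call of HTZ1 was lost without replicate 4 (adjusted p = 0.0548) and without replicate 5 (adjusted p = 0.0638), which left 1 of 3. CSE4, the H3 of centromeres, had 0.0931 ± 0.0127 against 0.0823 (log2 0.18, adjusted p = 0.586), and rose with TMM factors (log2 1.76, adjusted p = 3.92e-07).

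Of 18 genes for histone regulators and chaperones 17 could be tested, as the region upstream of HIR1 was 4 bp wide. Of these 8 rose, where 48.5% of all promoter-containing regions did, 1 fell, where 25.1% did, and 8 did not pass. With TMM factors 16 of 17 rose and 0 fell, where 78.1% and 2.6% of all promoter-containing regions did. The median of the list was log2 0.46, against 0.60 over all promoter-containing regions. NAP1, a chaperone of H2A and H2B, was highest with 4.09 ± 0.34 HpM per bp in SPO11+ against 0.0978 in spo11-Y135F (log2 5.38, adjusted p = 7.77e-08). ASF1, a chaperone of H3 and H4, had 0.498 ± 0.078 against 0.0910 (log2 2.45, adjusted p = 1.12e-05), and SPT10, the activator of the core histone genes, 0.258 ± 0.031 against 0.0937 (log2 1.46, adjusted p = 7.83e-04).

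VPS75, HIR2, CAC2, RTT106 and SPT21 rose as well, by log2 0.69 in SPT21 to log2 1.65 in VPS75. The call of RTT106 was lost without replicate 1 (adjusted p = 0.0649) and without replicate 4 (adjusted p = 0.0587). SWI6, a subunit of the SBF and MBF factors, fell with 0.0327 ± 0.0071 against 0.0959 (log2 -1.57, adjusted p = 0.00127), but stood at log2 -0.00028 with TMM factors and at log2 0.14 with DESeq2, without a call. SWI4, the DNA-binding subunit of SBF, had 0.0841 ± 0.0069 against 0.0923 (log2 -0.13, adjusted p = 0.587), and HPC2 of the HIR complex 0.116 ± 0.014 against 0.101 (log2 0.19, adjusted p = 0.546). The other 6 that did not pass (HIR3, YTA7, RTT109, MBP1, RLF2 and MSI1) lay between log2 -0.55 in HIR3 and log2 0.46 in RLF2.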

How the data were processed

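CC-seq was applied to meiotic SK1 cells, giving 6 SPO11+ libraries of 5 biological replicates and 1 spo11-Y135F library. The authors aligned paired reads with bowtie2 to Cer3H4L2, without a cut on mapping quality, placed the 5′ end of read 1 with terminalMapper and removed repeats, telomeres and rDNA. Their deposited single maps hold counts of hits, not normalized, by nucleotide and by strand. The deposited average map holds RPM values, called HpM (hits scaled to 1000000 per library), and served only as an alternative.

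Groups were taken from the labels. Technical replicates of replicate 5 were summed. Chromosome III, which holds introduced loci, was left out of regions but kept in library sizes, and stretches of over 200 bp where no library had hits were masked. ORFs and gaps came from a RefSeq gene table of R64, with strands from the systematic names. No sequence was used, so that motifs, which had been planned, are not analysed here. Regions with at least 10 hits were tested, and 1 hit was added before log2 ratios to similar gaps.

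edgeR 4.0.16, limma 3.58.1 and DESeq2 1.42.0 in R 4.3.3 and Python 3.11.15 with numpy 2.4.6, scipy 1.17.1, pandas 2.3.3 and matplotlib 3.10.9 were used. Both fits were tested on simulated data with 200 regions changed 2-fold, of which edgeR found 24.5% (30.5% of those with enough hits to average 100) with 2 false calls among 11312 regions, and limma 100% with 11 false calls among 1476. The values simulated for limma were independent and normal, not counts, with all changes of the same size and direction. Its share thus does not measure what that fit can find in these data. Named genes were the members, the gene beyond each, the 2 nearest gaps of similar width and the extremes of that class, the 3 strongest sites of each gap and the listed regulators, with values for some of the latter chosen after they were seen. Members and lists were chosen with earlier results of these data known. Alternatives covered scaling, filters, gap borders, width classes, strands, thresholds, depth and leaving out each replicate.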

Additional observations from a re-analysis of the deposited data

Results flagged for a closer look

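Over 32 measures of the histone gaps and ORFs with 5 SPO11+ replicates each, 3 had a replicate far from the other 4, by a gap to the nearest of over 0.71 of the whole range. Chance gives about 1 in 20, or 1.6 of 32. The share of hits on the HTA2 side of the HTA2-HTB2 gap was 39.96% in replicate 4, against 46.4% to 47.4% in the others. The density of the HHT2-HHF2 gap over its similar gaps was 2.31-fold in replicate 4, against 1.51-fold to 1.74-fold in the others. In the HHF1 ORF replicate 3 had a density of 0.0278 HpM per bp, and the other 4 had 0.0217 to 0.0225.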

How the results depend on the processing

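Of 388 alternative values for 42 results, 356 were tallied as kept, by rules that differed between results. Values of the limma and edgeR fits had to keep their direction and their side of the threshold. Densities had to move by less than the SD between replicates. Folds between gaps, ratios to ORFs and side shares had to keep their direction only. Counts could move by a set fold, as from 964 divergent gaps called higher in SPO11+ to 1299 with TMM factors. No paired analysis was possible because spo11-Y135F had 1 library, which shares only 1 replicate number with SPO11+. Depth limited the ORFs most, with 17 to 84 hits per ORF and SPO11+ replicate, against 242 to 2796 per gap. Shortened by 50 bp at each end, the HTA1-HTB1 gap had 0.101 HpM per bp. Against all divergent gaps of any width HHT1-HHF1 was 1.31-fold and past the threshold (adjusted p = 0.00532 by limma). Against the mean of the similar gaps, which a few strong gaps raise, HHT1-HHF1 turned to 0.554-fold (adjusted p = 2.58e-05) and HHT2-HHF2 to 0.909-fold (adjusted p = 0.178), and 363 divergent gaps lay above, against 662 with the median. For SPO11+ over spo11-Y135F, TMM factors gave log2 1.64 in the HTA1-HTB1 gap and 2.16 in the HTA2-HTB2 gap, both now called, and the HTA1, HHT1 and HHT2 ORFs lost their call at -0.63, -0.45 and -0.23, while HHF1 and HHF2 turned to 0.12 and 0.072. DESeq2 gave 1.78 and 2.31 in the same gaps, both called, and -0.49 in HTA1, -0.69 in HTB1, -0.56 in HTA2, -0.76 in HTB2, -0.31 in HHT1 and -0.10 in HHT2, none called, with HHF1 and HHF2 at 0.26 and 0.21. ORFs called lower numbered 5151 with all hits as library size, 2518 with TMM factors and 1363 with DESeq2, whose scaling moves the median of all regions to log2 -0.20 and -0.06. Leaving out each replicate in turn, the HTA2-HTB2 gap ranged over log2 0.47 to 0.63 and was called without replicate 2 alone. With alternatives added after the data were seen, 16 regulator genes were called higher and 0 lower by TMM factors and by DESeq2, against 8 and 1, and the variant and linker histones called higher numbered 1 with technical replicate 1 of replicate 5 alone and 1 to 2 with a replicate left out. By the same criteria, leaving out a replicate changed no other of 205 values. Many of these could not change. Dropping 1 of 5 replicates cannot move a mean density by a whole SD. Folds between gaps, ratios to ORFs and side shares were judged by direction alone, and all their replicates lay on the same side. Hotspots were found in 3 of 4 gaps at 5 times the mean and in 4 of 4 at 2 times.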

Other observations

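In spo11-Y135F the HTA2-HTB2 gap had the second highest density among it and its 426 similar gaps (rank 2 of 427), 1.37 times their median of 0.0886 HpM per bp, and 51.3% of its 197 hits lay within 150 bp of a start codon, where an even spread would give 42.9%. The other histone gaps ranked 344 of 422 (HHT2-HHF2), 307 of 439 (HHT1-HHF1) and 223 of 383 (HTA1-HTB1) in that library. The ORFs beside it, HTA2 and HTB2, were higher than 77.0% and 90.9% of ORFs of similar length in spo11-Y135F. There is no replicate of this library, and these values were singled out after they were seen.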
